A study of Mus musculus with 6 samples.

Results

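C/D box snoRNA genes were followed in total RNA of mouse embryonic stem cells with both or only 1 intact allele of Srrm2, whose product is a splicing factor found in nuclear speckles. The members were the genes annotated as snoRNA whose symbol begins with Snord. The annotation held 98 of them and the deposited counts 97, out of 42450 listed genes, since a second identifier of Snord80 was not found in the table. U3, a C/D box snoRNA with another symbol, was not a member. The WT group was the E14tg2a.4 embryonic stem cell line, and the Srrm2+/- group was a derivative of that line with a gene-trap cassette in 1 Srrm2 allele. Both were grown on gelatine and moved to serum-free medium with LIF before collection, and each gave 3 total RNA libraries read at 75 bp. Per the study's methods, the Srrm2+/- cells were 1 gene-trap line, the lines were at different passages, and cells frozen in 3 separate batches served as the replicates. Genotype, clone and passage therefore cannot be told apart.

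Most C/D box snoRNAs guide fibrillarin, the methyltransferase of the C/D particle, to the ribose that it modifies in rRNA or in the U6 spliceosomal RNA. A few, such as U8, U13, U14 and U22, are needed for the cleavage of the rRNA precursor or for other modification of it. In mammals nearly all of them lie in introns of other genes, are released when the spliced intron is debranched and trimmed, and are protected at their ends by the proteins that bind box C and box D. U8 and U13 are exceptions that are transcribed from promoters of their own. How far a mature snoRNA is seen in a library also depends on how short RNA is carried through its preparation.

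The sequences below belong to members on which the results turn, in sense orientation from the GENCODE M21 transcripts (GRCm38), 5′ to 3′ with T for U. Capitals mark the box C core TGATGA where it lies within the first 20 bases and the box D core CTGA where it lies within the last 15 bases. The first group holds the long members, with U8 (Snord118), U22 (Snord22), Snord15a and the most abundant member, Snord17.
Snord118: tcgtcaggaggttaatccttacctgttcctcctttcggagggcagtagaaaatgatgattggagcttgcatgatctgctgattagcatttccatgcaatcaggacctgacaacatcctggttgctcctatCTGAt
Snord22: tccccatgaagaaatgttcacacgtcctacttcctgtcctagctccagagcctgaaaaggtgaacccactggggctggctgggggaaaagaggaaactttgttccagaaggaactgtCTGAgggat
Snord15a: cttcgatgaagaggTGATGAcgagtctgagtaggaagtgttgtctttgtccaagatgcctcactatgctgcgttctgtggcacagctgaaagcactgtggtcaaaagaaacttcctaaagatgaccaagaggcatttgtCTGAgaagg
Snord17: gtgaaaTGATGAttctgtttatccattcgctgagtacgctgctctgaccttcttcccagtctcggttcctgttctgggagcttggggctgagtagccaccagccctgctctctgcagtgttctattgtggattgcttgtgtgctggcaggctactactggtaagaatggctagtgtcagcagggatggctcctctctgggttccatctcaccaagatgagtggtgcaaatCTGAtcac

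The second group holds the 4 tested members that share Rpl13a as a host and 2 of those that share 2410006H16Rik, shown because some members of these hosts were called and others were not.
Snord32a: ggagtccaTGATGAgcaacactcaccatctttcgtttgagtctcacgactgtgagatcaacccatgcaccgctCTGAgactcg
Snord33: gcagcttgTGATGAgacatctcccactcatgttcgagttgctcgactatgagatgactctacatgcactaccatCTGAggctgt
Snord34: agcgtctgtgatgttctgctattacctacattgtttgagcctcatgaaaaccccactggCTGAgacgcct
Snord35a: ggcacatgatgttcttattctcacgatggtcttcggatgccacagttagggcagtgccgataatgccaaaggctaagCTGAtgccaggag
Snord49a: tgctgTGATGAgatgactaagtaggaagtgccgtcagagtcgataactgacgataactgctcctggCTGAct
Snord65: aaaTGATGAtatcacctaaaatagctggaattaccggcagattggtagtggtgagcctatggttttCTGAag

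Annotated length ran from 64 to 238 nt with a median of 84.0 nt. The box C core was found in its window in 69 of 97 members (71.1%), the box D core in 91 (93.8%) and both in 67. In the H/ACA box class (symbols beginning with Snora), 0 of 41 genes held TGATGA in the same window and 3 (7.32%) held CTGA. An annotated host gene on the same strand held 94 members. For 93 the next host exon could be measured, and it began a median of 93.0 nt downstream of the snoRNA, with 49 members at 50 to 100 nt. Snord13, Snord118 and Snord104 had no annotated host.

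Library totals were 54151433 to 69933421 estimated counts. Srrm2, which checks the labels, was at 91.2, 98.3 and 97.7 CPM in WT and 62.3, 56.2 and 59.6 CPM in Srrm2+/-. All 9 embryonic stem cell markers were detected, 6 called lower and 1 (Utf1) higher, and they summed to 5173 to 5351 CPM in WT and 4486 to 4609 CPM in Srrm2+/-. All 5 fibroblast feeder markers were counted, at 2.78 to 3.27 CPM in sum in WT and 5.25 to 7.22 CPM in Srrm2+/-. Of these, Col1a1, Col1a2 and Postn were higher, and Thy1 and Pdgfra were not called (log2 fold changes -0.70 and -0.39). The 4 trophectoderm markers, with Cdx2 at 0 in WT and Eomes called higher, summed to 1.72 to 1.89 and 2.26 to 2.61 CPM, and the 4 primitive endoderm markers to 1.44 to 1.90 and 1.39 to 1.73 CPM. The part of these differences in the snoRNA values was not tested. Fewer cells of a type and less RNA per cell cannot be told apart in such bulk samples.

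Of the 97 members, 38 had 0 estimated counts in every library, 17 had counts but were too low to test, and 42 were tested. The zeros did not fall evenly over the sequences. Of each member the share of 31-base words, the unit that kallisto matches by default, that also occurs in annotated transcripts of other genes was computed. None of the 36 members with under 5% of such words was at 0, whereas 35 of the 52 members with over 95% were. The 19 genes of imprinted orphan snoRNAs, which have no known rRNA target, were all at 0 (17 Snord116 copies, Snord64 and Snord107). Without them, 19 of 36 members with over 95% of words elsewhere (52.8%) were at 0. In 50 of these 52 members the words lay in transcripts of the host gene. An exon of at least 1 annotated host transcript overlapped 40 members in full or in part, of which 19 were at 0 and 9 were tested. A count of 0 for such a gene is therefore an estimate, in which reads can be credited to the host.

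Among the 42 tested members, edgeR called 11 lower (26.2%) and 0 higher in Srrm2+/-. Of all 18905 tested genes, 25.3% were called, 11.7% lower and 13.6% higher, and of the 210 tested snoRNA genes 43.8% were lower. The median log2 fold change was -0.33 over the tested members and -0.0025 over all tested genes. Values ran from -8.72 to 0.71, and 37 of 42 were negative. Of the tested members, 2 (Snord33 and Snord99, both called lower) passed the filter on low counts through the WT libraries alone and 0 through the Srrm2+/- libraries alone, so for that pair a difference was built into being tested. The lowest belongs to Snord33, which had 0 counts in Srrm2+/-, so its fitted size is no bound and does not move the median. The 31 uncalled members ran from -2.04 (Snord47) to 0.71 (Snord42b). At an unadjusted edgeR p under 0.05, 16 members were lower and 0 higher. The share of all tested genes at that threshold is not given here, so this count is only a description. DESeq2 and limma voom also called 11 lower and 0 higher. The 11 of DESeq2 held Snord47 (DESeq2 adjusted p 0.00486) and not Snord15b (0.0835). The groups did not overlap in 15 of the 42 tested members, all of them lower in Srrm2+/-, against 41.4% of all tested genes. Lack of overlap was thus no more frequent among the members.

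The summed level of all C/D box members was 577, 633 and 436 CPM in WT and 336, 452 and 334 CPM in Srrm2+/-, which overlapped. The sum corresponded to 0.0549% of all counts in WT and 0.0373% in Srrm2+/-. Without Snord17 the sums were 317, 321 and 200.01 CPM in WT and 131, 173 and 144 CPM in Srrm2+/-, and the groups did not overlap.

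The guides required for rRNA processing were compared first. U8 and U13, the pair with genes of their own, fell about 3-fold in the mean CPM. Snord118 (U8, chr11:69073427-69073561, plus strand, 135 nt), which acts in the maturation of the large-subunit rRNAs, was at 74.7, 61.8 and 28.3 CPM in WT and 16.8, 24.0 and 17.3 CPM in Srrm2+/-. Each Srrm2+/- library lay below each WT library, and WT replicate 3 was well below the other WT libraries. The mean fell to 19.3 ± 4.04 CPM from 54.9 ± 23.9 CPM (SD, 3 libraries each), and edgeR estimated the log2 fold change at -1.51 (SE 0.31, adjusted p 0.00699). In Snord118, 32.4% of the words also occur in another annotated snoRNA gene, Gm24208. Snord13 (U13, 104 nt), which pairs with small-subunit rRNA, was at 20.8, 22.2 and 14.1 CPM in WT and 5.53, 4.23 and 8.67 CPM in Srrm2+/-. All Srrm2+/- values were again below all WT values. Its log2 fold change was -1.63 (edgeR, SE 0.25, adjusted p 0.00166), and 0% of its words occur in M21 transcripts of other genes.

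Snord22 (U22, chr19:8725866-8725991, plus strand, 126 nt), needed for small-subunit rRNA processing, lies in Snhg1. It was at 29.7, 30.3 and 14.1 CPM in WT and 9.06, 13.1 and 10.1 CPM in Srrm2+/-. The groups did not overlap, and the gap between the lowest WT library, replicate 3, and the highest Srrm2+/- library was narrow. The log2 fold change was -1.20 (edgeR, SE 0.26, adjusted p 0.0101). All of its words (100%) occur in M21 transcripts of Snhg1, so by M21 it had no word of its own by which to be counted. The M24 transcripts that kallisto used were not examined. Snhg1 was not among the tested genes, so Snord22 had no ratio to its host. Of the U14 genes in introns of Hspa8, Snord14c was the one tested, and it was low and variable, at 0.739, 0.277 and 0.131 CPM in WT and 0.0144, 0.145 and 0.276 CPM in Srrm2+/-. These ranges overlapped and no call was made (log2 fold change -1.41, SE 0.81, edgeR adjusted p 0.252). The value was -0.52 without WT replicate 1 and -2.23 without Srrm2+/- replicate 3, both uncalled. Snord14d, which was counted but not tested, was at 0.595, 0.796 and 0.0560 CPM in WT and 0, 0 and 0.0324 CPM in Srrm2+/-, and Snord14e had counts in WT libraries alone. All words of these 3 genes occur in Hspa8.

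**Figure D1:**
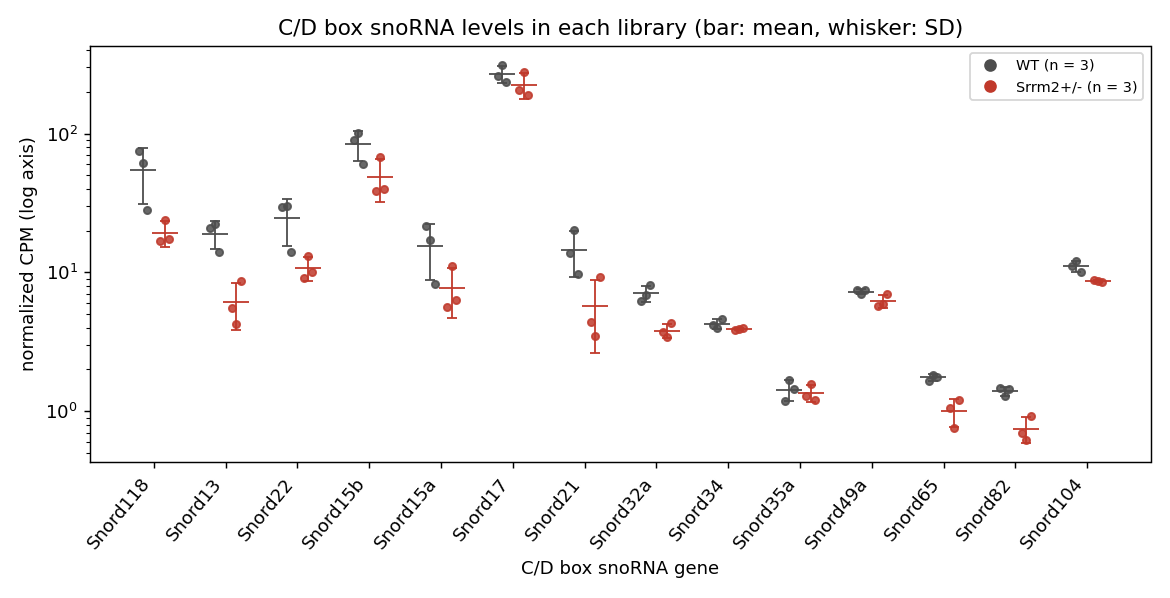
Normalized CPM (log axis) of 14 C/D box snoRNA genes in each of the 6 libraries, with WT in grey and Srrm2+/- in red. Points are libraries, bars the mean and whiskers the SD (n = 3 each). Snord118, Snord13 and Snord22 separate the groups, with WT replicate 3 the lowest WT library of each, whereas Snord17, Snord34 and Snord35a overlap.

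Snord17 (chr2:144265979-144266216, minus strand, 238 nt), a guide in an intron of Snx5, was the most abundant member, also per length. It was at 260, 313 and 236 CPM in WT and 205, 279 and 190 CPM in Srrm2+/-. The ranges overlapped, and its log2 fold change of -0.26 (edgeR, SE 0.15, adjusted p 0.236) was not called. Without Srrm2+/- replicate 2, the highest of its group, the value was -0.45 with an edgeR adjusted p of 0.0276. In WT Snord17 stood at 1132 CPM per kb, ahead of Snord15b at 581, Snord118 at 407, Snord22 at 196 and Snord13 at 183. In Srrm2+/- the order of the first 3 was the same, and Snord22 and Snord13 stood in places 6 and 8 of the tested members. Snord22 and Snord13 differed in WT by less than the SD of either, so that neighbouring pair is not ordered.

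Snord15a and Snord15b, paralogous guides of large-subunit rRNA methylation in Rps3, had means that were lower by similar factors. Snord15b (chr7:99479563-99479707, minus strand, 145 nt) was at 90.5, 101 and 60.7 CPM in WT and 38.8, 67.7 and 39.7 CPM in Srrm2+/-. It was called (log2 fold change -0.79, SE 0.24, edgeR adjusted p 0.0390) although Srrm2+/- replicate 2 lay above WT replicate 3. Leaving out any library except WT replicate 3 or Srrm2+/- replicate 2 ended the call, with edgeR adjusted p from 0.101 to 0.134, and DESeq2 gave 0.0835. Snord15a (chr7:99482785-99482932, minus strand, 148 nt) was at 21.5, 17.1 and 8.23 CPM in WT and 5.62, 11.2 and 6.34 CPM in Srrm2+/-. It was not called (log2 fold change -1.02, SE 0.35, edgeR adjusted p 0.0635), but it was called without WT replicate 3 (edgeR adjusted p 0.00895) and without Srrm2+/- replicate 2 (0.0311). The log2 ratio of Snord15a to Snord15b was -2.51 ± 0.407 in WT against -2.68 ± 0.0979 in Srrm2+/- (SD, 3 libraries each), with an exact two-sided permutation p of 0.7 and overlapping libraries. All words of Snord15b occur in Rps3 transcripts, and none of Snord15a occur elsewhere.

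Rpl13a introns hold 4 tested members, of which Snord32a and Snord33 were called and Snord34 and Snord35a were not. The host encodes a large-subunit ribosomal protein and averaged 629 ± 13.5 CPM in WT against 574 ± 37.0 CPM in Srrm2+/- (SD, 3 libraries each), which was not called (edgeR adjusted p 0.0937). Snord32a (chr7:45127382-45127464, minus strand), a guide with sites in both subunits' rRNA, was at 6.25, 6.87 and 8.12 CPM in WT and 3.73, 3.41 and 4.31 CPM in Srrm2+/-. The groups were far apart, with a log2 fold change of -0.89 (edgeR, SE 0.13, adjusted p 0.00150) that was called under all 14 alternatives. Snord33 (chr7:45126864-45126947, minus strand) had 64, 45 and 35 counts in WT and 0 in each Srrm2+/- library. Set at the floor of 3 counts in each of these libraries, its estimated level was 19.1-fold lower. The edgeR call (adjusted p 0.000258) was made under all 13 alternatives run for it. Snord33 passed the filter on low counts through the WT libraries alone, so this p-value and these alternatives are only a description. Moreover, 100% of its words occur in Rpl13a transcripts, so the zeros are estimates of how kallisto divided the reads. The 19.1-fold value is therefore no bound on the change of the RNA.

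Snord34 (chr7:45126601-45126670, minus strand), a guide of large-subunit rRNA, was at 4.16, 4.00 and 4.65 CPM in WT and 3.86, 3.94 and 4.00 CPM in Srrm2+/-. Snord35a (chr7:45126346-45126435, minus strand) was at 1.19, 1.68 and 1.44 CPM in WT and 1.29, 1.57 and 1.20 CPM in Srrm2+/-. Both overlapped between the groups, and their log2 fold changes of -0.12 (SE 0.11) and -0.09 (SE 0.20) were not called (edgeR adjusted p 0.498 and 0.799). None of the words of Snord32a, Snord34 and Snord35a occur in other transcripts. The log2 ratio of Snord32a to Snord34 was 0.72 ± 0.12 in WT against -0.05 ± 0.16 in Srrm2+/- (SD, 3 libraries each), and no Srrm2+/- library reached a WT library. The exact two-sided permutation test gave p = 0.1, the smallest that 3 against 3 libraries allow, and 0.15 after adjustment over the 3 ratios of members of 1 host that were compared. The pairs were chosen after their values were seen.

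The non-coding gene 2410006H16Rik hosts Snord49a, Snord49b and Snord65, of which Snord65 was called. Snord65 (chr11:62604515-62604586, plus strand) was at 1.66, 1.83 and 1.77 CPM in WT and 1.05, 0.754 and 1.20 CPM in Srrm2+/-, giving a log2 fold change of -0.81 (edgeR, SE 0.20, adjusted p 0.0187). The groups did not overlap, and the call was lost without WT replicate 2 (edgeR adjusted p 0.0577). Snord49a (chr11:62603450-62603521, plus strand) was at 7.48, 6.97 and 7.41 CPM in WT and 5.72, 5.90 and 6.97 CPM in Srrm2+/-, and its log2 fold change of -0.23 (edgeR, SE 0.10, adjusted p 0.135) was not called. Snord49b differed by -0.12 (SE 0.11, edgeR adjusted p 0.473). For both, each Srrm2+/- library nevertheless lay below each WT library. For Snord49a the gap was nearly nil, at 6.969 CPM in Srrm2+/- replicate 3 against 6.971 CPM in WT replicate 2. Against the host, Snord65 was not called (limma adjusted p 0.0685). The log2 ratio of Snord65 to Snord49a was -2.05 ± 0.124 in WT against -2.65 ± 0.281 in Srrm2+/- (SD, 3 libraries each), again with an exact permutation p of 0.1 and an adjusted p of 0.15.

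The remaining called members lay in other hosts or had none. Snord21 (chr5:107904555-107904648, plus strand), in Rpl5, was at 13.9, 20.2 and 9.71 CPM in WT and 4.42, 3.51 and 9.24 CPM in Srrm2+/-. The groups just failed to meet, and the call (log2 fold change -1.36, SE 0.36, edgeR adjusted p 0.0240) was lost without WT replicate 2 (0.0852) or Srrm2+/- replicate 1 (0.0868) or 2 (0.0758). All of its words occur in Rpl5. Snord82 (chr1:86356261-86356330, minus strand), in Ncl, which encodes nucleolin, fell to 0.747 ± 0.157 CPM from 1.40 ± 0.104 CPM (SD, 3 libraries each), or by 0.91 on the log2 scale (SE 0.21, edgeR adjusted p 0.0124), and 0% of its words occur elsewhere. Snord104 (chr11:106500993-106501062, plus strand, 70 nt) was at 11.2, 12.2 and 10.1 CPM in WT and 8.83, 8.67 and 8.51 CPM in Srrm2+/-. Its change was the smallest of those called, -0.36 (SE 0.08, edgeR adjusted p 0.0133), with tight replicates, and the adjusted p was 0.0505 without Srrm2+/- replicate 3. Snord99, in Snhg12, was near the detection floor in Srrm2+/- at 0.0434, 0 and 0.0162 CPM (3, 0 and 1 counts), against 0.216, 0.277 and 0.448 CPM in WT (log2 fold change -3.84, SE 0.72, edgeR adjusted p 0.00454), and all of its words occur in its host. Its value was -5.01 without Srrm2+/- replicate 1, which held 3 of those counts. Snord99 passed the filter on low counts through the WT libraries alone, so its p-value is only a description. Snord82, Snord65 and Snord99 lay under the level at which called genes were named by rule and were named after their values were seen.

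Snord47 in Gas5, a non-coding host of several snoRNAs, was just outside the threshold (edgeR adjusted p 0.0509). It was at 0.829, 0.294 and 1.42 CPM in WT and 0.116, 0.102 and 0.405 CPM in Srrm2+/-, with 1 WT library inside the Srrm2+/- range. Its log2 fold change of -2.04 (SE 0.66) became -1.44 without WT replicate 3 and -2.93 without Srrm2+/- replicate 3. It was called without WT replicate 2 (edgeR adjusted p 0.0198), without Srrm2+/- replicate 3 (0.0249) and by DESeq2 (0.00486), and all of its words occur in Gas5. Of the uncalled members, 5 had groups that did not overlap, namely Snord1b and Snord89 (log2 fold changes -1.04 and -0.68, edgeR adjusted p 0.0536 and 0.0635), Snord49a, Snord49b and Snord53. Such separation was common, in 15 of the 42 tested members and in 41.4% of all tested genes, so it does not set these 5 apart. The guides of U6 modification, Snord7 and Snord8, averaged 0.357 ± 0.104 and 0.338 ± 0.163 CPM in WT against 0.333 ± 0.0631 and 0.258 ± 0.0617 CPM in Srrm2+/- (SD, 3 libraries each). Neither was called (edgeR adjusted p 0.857 and 0.574). Snord53 in Wdr43, among the more abundant uncalled members, averaged 3.96 ± 0.210 CPM in WT against 3.61 ± 0.0334 CPM in Srrm2+/- (SD, 3 libraries each), a log2 difference of -0.13 (SE 0.11, edgeR adjusted p 0.428).

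The members were then grouped by annotated length. All 8 tested members of 100 nt or more had a negative log2 fold change, 4 were called lower and the median was -0.90. Of the 18 tested members of 75 to 99 nt, 3 were lower with a median of -0.22, and of the 16 members under 75 nt, which is the read length, 4 were lower with a median of -0.22. With members that have under 5% of words elsewhere taken alone, 1 of 5 was lower at 100 nt or more (Snord13), 1 of 12 at 75 to 99 nt and 3 of 13 under 75 nt. By level, 6 of 8 members with a WT mean of 10 CPM or more were lower, 3 of 14 at 1 to 10 CPM and 2 of 20 under 1 CPM. The last 2 were Snord33 and Snord99, which passed the filter through WT alone. As the classes were cut on the WT mean, 1 side of the comparison, these counts are only a description. Across the 41 tested members other than Snord33, whose fitted value is arbitrary, length and log2 fold change gave Pearson's r of -0.12 and Spearman's rho of -0.28, and over the 30 members with under 5% of words elsewhere r was -0.22 and rho -0.23. Genes are not independent replicates, all come from the same 6 libraries, and these correlations are weak. Snord17, the longest, had the change nearest 0 of its class.

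**Figure D2:**
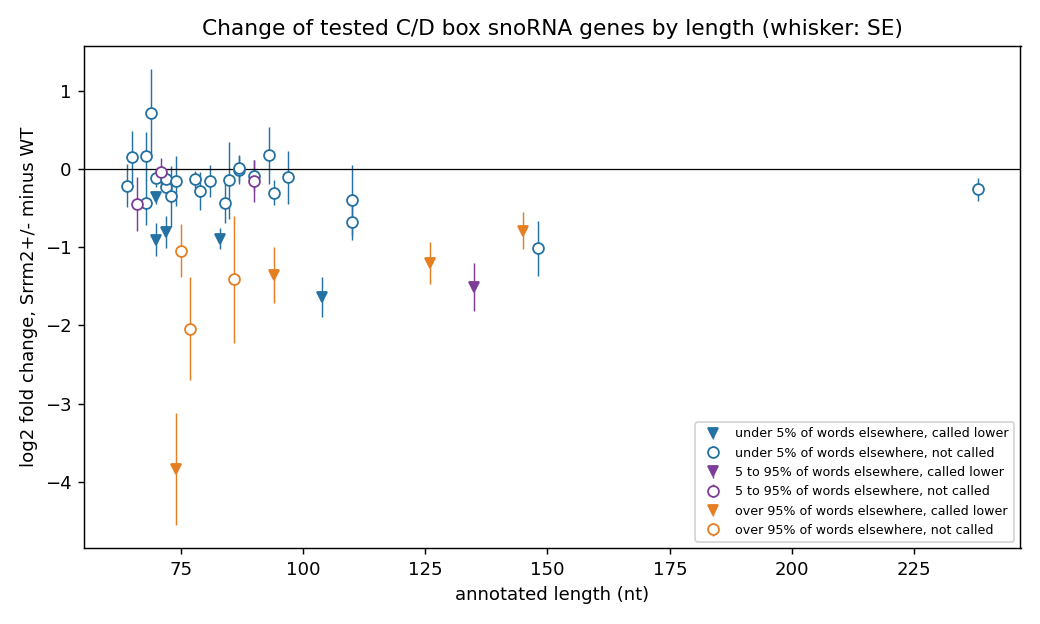
Log2 fold change (Srrm2+/- minus WT) against annotated length (nt) for 41 tested members, with the SE as whiskers and colour for the share of words found in other transcripts. Snord33 is not drawn because it had 0 counts in Srrm2+/-. Filled triangles are called lower. The 8 members of 100 nt or more all lie below 0, and uncalled members under 100 nt with few shared words lie on both sides of 0.

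Summed by class, the members of 100 nt or more other than Snord17 were at 239, 234 and 127 CPM in WT and 76.8, 121 and 83.0 CPM in Srrm2+/-, a 2.14-fold lower mean. WT replicate 3 lay near the highest Srrm2+/- library. The class of 75 to 99 nt summed to 43.1, 49.6 and 38.0 CPM in WT and 24.7, 23.2 and 30.7 CPM in Srrm2+/-. The shortest class was at 35.3, 36.8 and 35.2 CPM in WT and 29.2, 28.9 and 30.1 CPM in Srrm2+/-, a small difference with little spread. The SD between WT libraries was 63.4 CPM in the longest class without Snord17 and 0.886 CPM in the shortest.

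**Figure D3:**
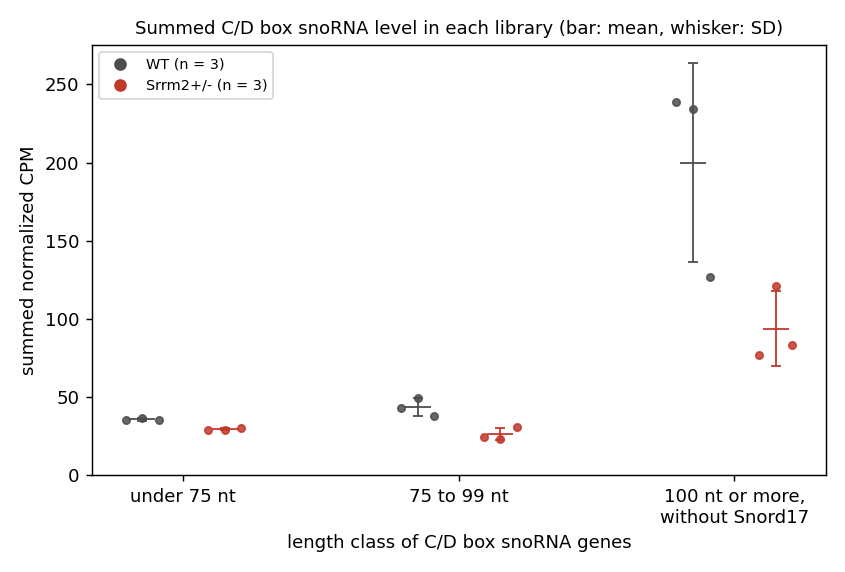
Summed normalized CPM of the C/D box snoRNA genes in 3 length classes in each library (points), with the mean (bar) and SD (whisker, n = 3 each). The 2 shorter classes lie under 50 CPM with WT above Srrm2+/-, and the class of 100 nt or more without Snord17 spans 127 to 239 CPM in WT and 76.8 to 121 CPM in Srrm2+/-.

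The members were also grouped by shared sequence. Of 30 tested members with under 5% of words elsewhere, 5 were lower (Snord13, Snord32a, Snord82, Snord65 and Snord104) with a median log2 fold change of -0.22. Of 8 with over 95%, 5 were lower (Snord33, Snord99, Snord21, Snord22 and Snord15b), and the median was -1.39. Snord33 and Snord99 are among these 8, and as they passed the filter through WT alone the count and the median are given as a description and not as a difference between the classes. The 9 tested members overlapped by a host exon in full or in part had a median of -1.36 and the 33 others -0.23. Snord33 and Snord99 are among these 9 as well, so these medians are also a description and not a difference between the classes.

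The change of the host gene was set beside that of the snoRNA, since both come from 1 precursor. The 30 hosts of tested members had a median log2 fold change of -0.06, with 4 lower (Snhg12, 2410002F23Rik, Snhg6 and Nop56) and 2 higher (Hspa8 and Eef2). Across the 37 pairs without Snord33, host and snoRNA changes gave Pearson's r of 0.07 and Spearman's rho of -0.10. Ratios were tested on the log2 scale in limma over all 182 snoRNA-host pairs, of which 41.8% were lower and 0% higher. Of the C/D box members, 6 were lower against their host and 0 higher. The 6 were Snord33, Snord99, Snord47, Snord21, Snord82 and Snord32a. At an unadjusted limma p under 0.05, 10 were lower and 0 higher, and the share of all pairs at that threshold is not given here. With all libraries, 38 of the pairs held C/D box members. The count of lower members was 10 without WT replicate 3 or Srrm2+/- replicate 3 and 4 without WT replicate 2 or Srrm2+/- replicate 1, each with 41 or 42 such pairs. For Snord32a the ratio to Rpl13a differed by -0.75 (SE 0.23, limma adjusted p 0.0284) and for Snord82 the ratio to Ncl by -0.82 (SE 0.26, limma adjusted p 0.0298). Both have no shared words, whereas the other 4 have all of theirs in the host. Snord34 and Snord35a were not called against the same host (log2 ratio differences of 0.02, SE 0.21, and 0.05, SE 0.26). The 28 pairs with under 5% of words elsewhere held 2 of the 6 calls and had a median of -0.13, and the 7 pairs with over 95% held 4 and had a median of -1.72. Snord33 and Snord99, which passed the filter through WT alone, are among these 7 pairs and these 4 calls. The counts and medians are therefore a description and not a difference between the classes.

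**Figure D4:**
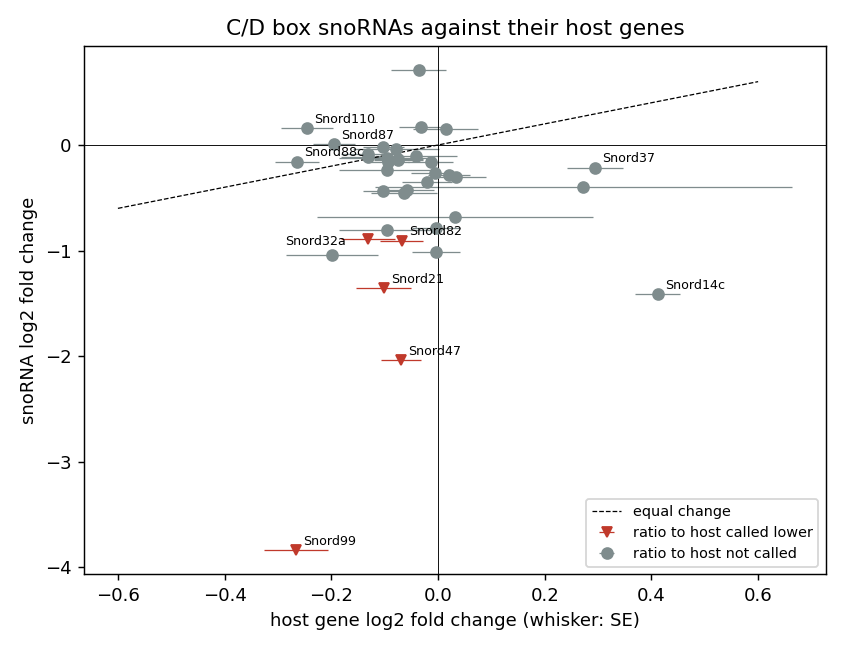
Log2 fold change of 37 C/D box snoRNAs against that of their host genes, with the SE of the host as whiskers and a dashed line for equal change. Red triangles are members called lower against the host. Snord33 is not drawn. Hosts spread over less than 1 log2 unit around 0, while snoRNAs reach -3.84, and the named grey points belong to hosts that were called.

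The RNA of genes for the proteins of the C/D particle was examined next, and no protein was measured. Of the 4 genes for core proteins, Nop56 fell by 0.25 on the log2 scale (SE 0.05, edgeR adjusted p 0.00624), and Fbl, which encodes the methyltransferase, Nop58 and Snu13 were not called (log2 fold changes 0.08, -0.10 and 0.05). None of the genes for 8 assembly factors, among them Nufip1, Ruvbl1 and Ruvbl2, and none of those for 9 factors of processing and transport, among them the debranching enzyme Dbr1, the cap hypermethylase Tgs1 and the nuclease Xrn2, was called by edgeR. Among H/ACA particle genes the RNA of Dkc1, which encodes the pseudouridine synthase, fell by 0.41 (SE 0.04, edgeR adjusted p 0.000240) and Nhp2 rose by 0.15 (SE 0.04, edgeR adjusted p 0.0397).

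The H/ACA box snoRNAs stood further from 0 than the C/D box members. Of 37 tested Snora genes, with a median length of 133 nt, 30 were lower and 0 higher, and the median log2 fold change was -1.16. Among other short structured RNAs, those of 102 to 151 nt were all lower in the mean. The Y RNAs Rny3 and Rny1 and the minor spliceosomal RNAs Rnu11 and Rnu12 fell, with log2 fold changes of -1.53, -1.49, -2.63 and -1.66 (edgeR adjusted p 0.00138, 0.00693, 0.00258 and 0.00181). The vault RNA Vaultrc5 was at -1.05 (SE 0.37, edgeR adjusted p 0.0706), with overlapping groups and no call. Rmrp at 271 nt, Rpph1 at 319 nt and Rn7sk at 331 nt were at -0.17, 0.05 and 0.03 and were not called. Terc, the telomerase RNA and the longest of the list at 423 nt, lay in the other direction at 0.88 (SE 0.36, edgeR adjusted p 0.113), with overlapping groups and no call. Of the 9 RNAs of that list 4 were lower and 0 higher. WT replicate 3 was the lowest WT library of Rny3, Rny1, Rnu11, Rnu12 and Vaultrc5, as it was of Snord118, Snord13, Snord22, Snord15a and Snord15b. This was not shared by all members, as it was the highest WT library of Snord32a, Snord34, Snord47 and Snord99, among others. The part of RNA length in the carry-over of short RNA between libraries was not tested.

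**Figure D5:**
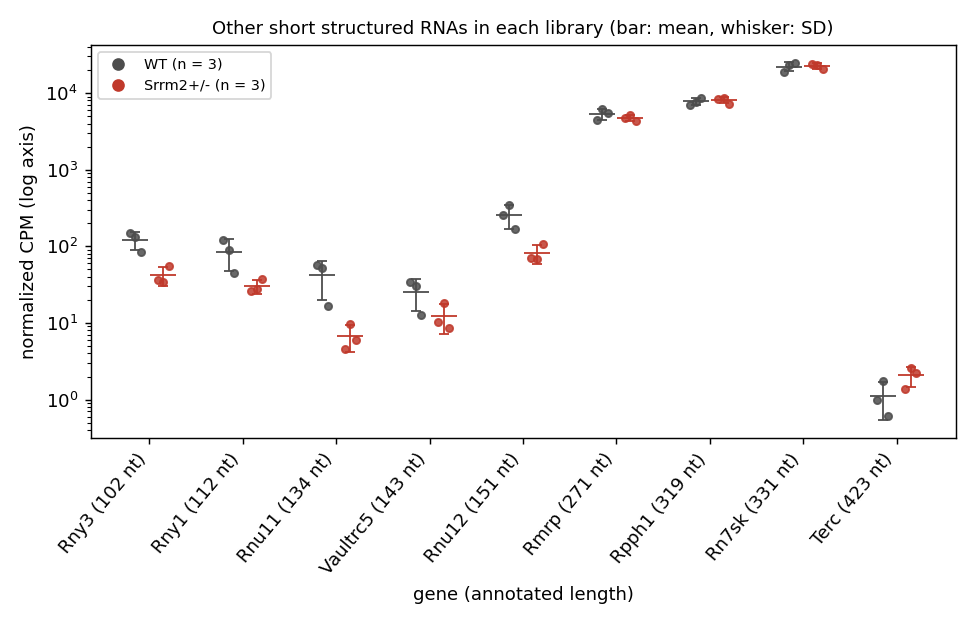
Normalized CPM (log axis) of 9 other short structured RNAs, ordered by annotated length, in each library (points) with the mean (bar) and SD (whisker, n = 3 each). The 5 RNAs of 102 to 151 nt lie lower in the Srrm2+/- means, with WT replicate 3 lowest of WT. Vaultrc5, Rmrp, Rpph1, Rn7sk and Terc overlap between the groups, with Terc higher in the Srrm2+/- mean.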

How the data were processed

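Total RNA libraries (3 WT, 3 Srrm2+/-; grouped and numbered by sample titles) were analysed from the deposited table. Per the study's methods and the submitters' processing notes, 600 ng of RNA was made into stranded libraries, read as 75 bp pairs and pseudo-aligned with kallisto 0.46.1 to the GENCODE M24 transcriptome (GRCm38). The authors deposited estimated counts per gene, not normalized. Whether kallisto used strand is not given in the sources used here. Reads that match several transcripts are split between them by estimation, so a snoRNA inside a retained intron and its host can exchange counts.

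Estimated counts were rounded. Symbols, types, positions (GRCm38, counted from 1), transcripts and sequences came from GENCODE M21, which matched 42156 of 42450 identifiers. Differences were tested with edgeR 4.0.16 (R 4.3.3; TMM, filterByExpr with minimum count 10 and minimum total 15, glmQLFit and glmQLFTest, two-sided, genotype alone) over 18905 genes, with Benjamini-Hochberg adjustment over all of them and a threshold of 0.05. CPM are on TMM-scaled sizes, and differences are Srrm2+/- minus WT. A SE is the log2 fold change divided by the square root of F. A floor is 3 counts per library (0.0434 to 0.0560 CPM) and covers counting error only. Snord genes with identical counts were to be taken once, and no tested members were identical.

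A host was the gene of another class on the same strand that holds the whole snoRNA, the most abundant of several. Ratios to the host were fitted with limma 3.58.1 (trend, log2 CPM, prior count 2) over all 182 pairs with both genes tested. Called members at a mean log2 CPM of 1 or more were named by size (at most 10 falls and 5 rises), with the 5 most abundant, the 5 most abundant uncalled, and tested members of the rRNA processing, U6, Gas5, Snhg1 and Rpl13a lists. Alternatives were RLE and upper quartile scaling, DESeq2 1.42.0, limma voom, other filters and call rules, the replicate block and each library left out. Scripts were tested on simulated data. The sequence and position of Snord13 are not reported here. Members, lists and tests were chosen with earlier results of these data known. P-values measure the spread between these samples.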

Additional observations from a re-analysis of the deposited data

How the results depend on the processing

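The count of 11 lower members, of 42 tested, stayed at 11 under RLE and upper quartile scaling, DESeq2 and limma voom. DESeq2 called Snord47 in place of Snord15b. The count also stayed at 11 with scaling without short RNA, rRNA and mitochondrial genes, which moved the median of all genes by -0.00314. With a filter of at least 1 CPM it was 9 of 21 tested members. With a filter of at least 1 count it was 17 of 58 (median log2 fold change -0.44). Of the 42 it became 5 at an adjusted p under 0.01 and 6 where a log2 fold change beyond ±1 was also required. It was 5 of 30 over members with under 5% of words elsewhere, which was chosen after seeing the data. The last 3 rules can only remove calls. With single libraries left out, 44 to 46 members were tested, of which 12 to 15 were lower and 0 higher. The median lay between -0.43 (without WT replicate 3) and -0.23 (without WT replicate 2). Members lower against the host numbered 4 to 10, with 10 of 42 without WT replicate 3 and 10 of 41 without Srrm2+/- replicate 3, whose cause was not tested. They numbered 6 and 7 of 38 with prior counts of 0.5 and 8, and 4 of 10 where snoRNA and host reached a mean log2 CPM of 1. No alternative gave a higher member. Snord35a and Snord7, neither called, changed sign to 0.044 and 0.14 without WT replicate 2, and over all single libraries left out Snord35a ranged from -0.21 to 0.044 and Snord7 from -0.28 to 0.14.

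Samples of the same replicate number showed no pairing in their correlations of deviations (-0.0285, -0.0337 and -0.0300). These correlations do not settle it for single members. The replicate block gave 12 lower members, a median of -0.32 and 6 lower against the host. Under it Snord21 was not called (edgeR adjusted p 0.0605), and Snord47 and Snord17 were (0.0106 and 0.01004). With the block the SE of Snord17 fell to 0.048 from 0.15, and that of Snord21 rose to 0.42 from 0.36.

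Of the 42 members tested, 20 had a WT mean under 1 CPM, where few counts per library limit precision. Members at 0 cannot be told from members whose reads were credited to a host.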
